A study of Homo sapiens with 60 samples.

Results

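The comparison described here rests on 6 of the 60 libraries of this series. They are the 3 libraries of HepG2 cells given a water extract of Aconiti Lateralis Radix Preparata at 100 µg/mL and the 3 libraries given the same extract at 20 µg/mL, both for 24 h, chosen by the treatment that the labels state. Aconiti Lateralis Radix Preparata is the processed side root of aconite, and the labels give no composition of its extract. HepG2 is an established human liver cancer line that keeps many genes of hepatocytes. The other libraries used for comparison were the 3 of the same extract at 500 µg/mL, 3 with vehicle (0.1% DMSO by the sample labels, 2% by the text of the series), and 3 each at 100 and 20 µg/mL of Bupleuri Radix and of Cimicifugae Rhizoma, all read after 24 h. The titles name batch B for all of these. Libraries whose title codes open alike are called a set here, a reading that the labels do not state. The doses rise 5-fold at each step, so the question was which genes had moved at 100 µg/mL, before the highest dose. Levels are CPM, the counts of a gene relative to all counts of its library, scaled by library composition, and fold changes are on the log2 scale with their standard error (SE), from 3 libraries a group.

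Expected counts summed to 27087759, 27975477 and 27073620 in the 100 µg/mL libraries and 23068632, 26978725 and 27740310 in the 20 µg/mL libraries. All 11 HepG2 and hepatocyte markers were present, with a summed level of 37000 to 39000 CPM at 100 µg/mL, against 43200 to 44500 CPM at 20 µg/mL (before scaling by composition). Of 8 fibroblast markers 2 had no count in any of the 6 libraries and 7 were under 1 CPM. The remaining one, PDGFRB, carried most of the sum of 6.18 to 6.72 CPM at 100 µg/mL, against 8.06 to 9.16 CPM at 20 µg/mL. Of 5 endothelial markers 4 were under 1 CPM and KDR had no count, with a sum of 3.88 to 4.68 CPM at 100 µg/mL, against 4.07 to 4.37 CPM at 20 µg/mL. Of 7 blood cell markers PTPRC and CD3E had no count, and lysozyme, LYZ, made up nearly all of the sum of 1020 to 1160 CPM at 100 µg/mL, against 994 to 1100 CPM at 20 µg/mL. The first replicate at 20 µg/mL stood apart from its pair in several of the genes below, among them CYP1A1, SOS1, AHRR and MT-ND6, and the values of these without it are given there. The share of counts from the mitochondrial ribosomal RNAs was 8.31 to 8.88% at 100 µg/mL, against 3.14 to 3.29% at 20 µg/mL. The part of that shift in the other results was not tested, but with every gene of mitochondrial DNA left out of the fit 881 genes were called, against 914 with them.

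The aryl hydrocarbon receptor (AHR) binds flat aromatic compounds, including many from plants, and turns on genes that oxidise them, first of all CYP1A1. NRF2 is a transcription factor freed when reactive compounds modify its partner KEAP1, and it turns on genes of glutathione and thioredoxin metabolism. Metallothioneins are small zinc-binding proteins whose genes answer to free zinc through the factor MTF1. ATF4 drives amino acid transport and synthesis when translation is under stress.

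Of 16093 genes tested, 914 were called at 100 against 20 µg/mL at an adjusted p under 0.05 (edgeR quasi-likelihood test, Benjamini-Hochberg), which is 5.68% of all. Of these 501 rose (3.11%) and 413 fell (2.57%). The changes were small. Only 49 genes rose and 36 fell by more than 1.5-fold, and 14 rose and 8 fell by more than 2-fold. In 899 of the 914 called genes no library of one dose overlapped the other dose. Over all genes, called or not, this held for 22.2%. The call and the lack of overlap come from the same values, so the lack of overlap adds no support of its own. By comparison, the step to 500 against 100 µg/mL called 2527 genes higher (15.7%) and 2420 lower (15%), or 2387 higher and 2960 lower with a trend in GC content removed from each library. In the same model, 964 genes (5.99%) had a step at 100 against 20 µg/mL that lay above the step at 500 against 100 µg/mL, and 961 (5.97%) had one that lay below. With the GC trend removed these were 1360 above and 986 below, and with the replicate number as a block as well 1448 and 1032. The count of 914 was 982 with the replicate number as a block in the whole fit. It was 1729 when only the 6 libraries were fitted with that block, and 582 to 717 when any one library was left out, with 582 to 598 without the second or the third library of either dose. In these bulk samples fewer cells of a kind and less RNA per cell cannot be told apart. Whether replicates came from separate cultures is not stated, and the p-values may thus rest on technical spread alone.

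**Figure D1:**
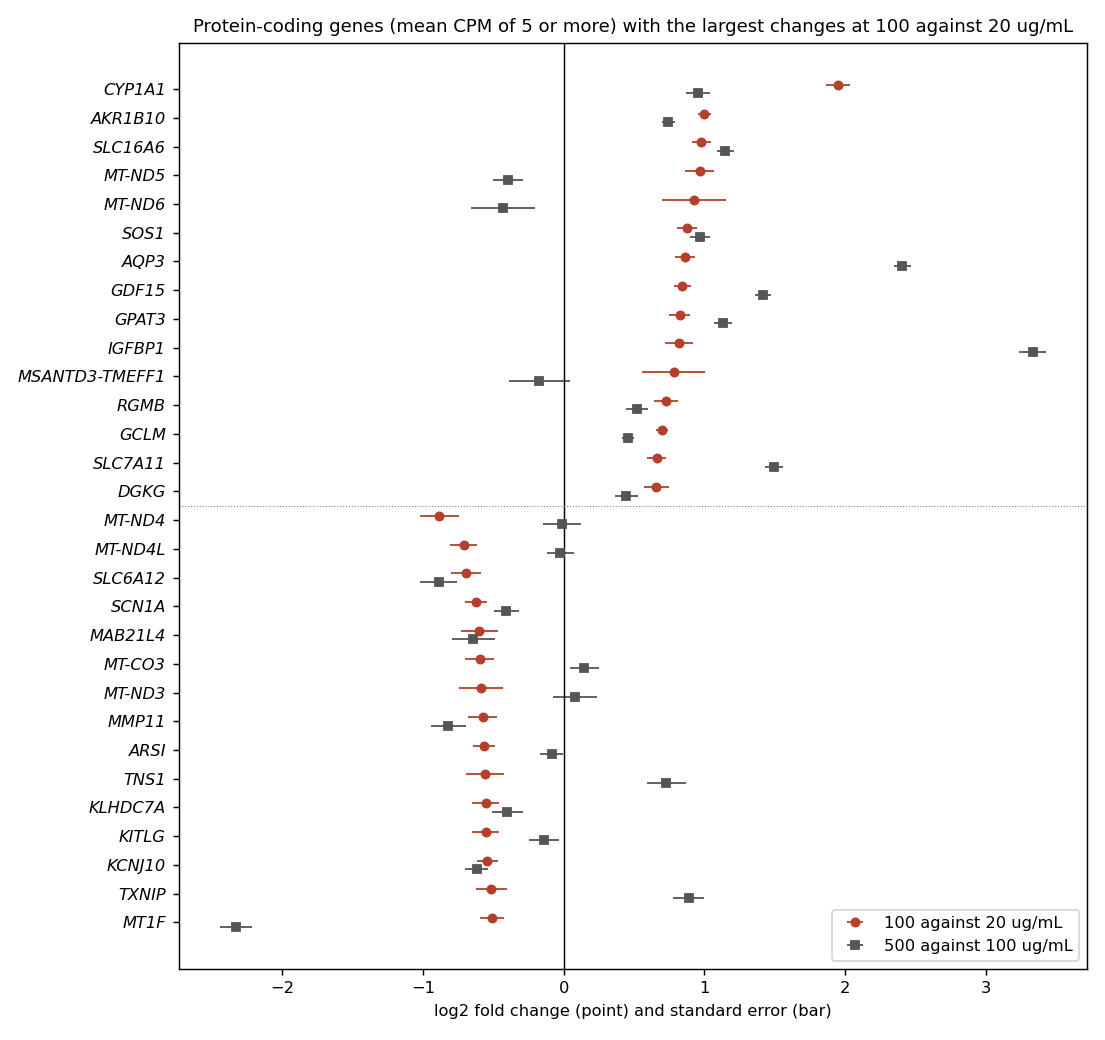
Log2 fold change (point) with its standard error (bar) of 30 called protein-coding genes with a mean of at least 5 CPM and no overlap of doses, the 15 highest and 15 lowest of these at 100 against 20 µg/mL, for that step (circles) and for 500 against 100 µg/mL (squares), 3 libraries a dose. CYP1A1 moved more in the lower step, IGFBP1, AQP3 and MT1F more in the upper one, and TXNIP and TNS1 fell in the lower step and rose in the upper one.

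The largest rise among nuclear protein-coding genes was in CYP1A1, the monooxygenase that is the classic target of AHR. The gene lies on chr15:74719542-74725610, minus strand (GRCh38). Promoters of CYP1A1 and of TIPARP, another AHR target that did not pass the test, are shown because both hold the core of the xenobiotic response element. They run from 250 bases before the start to 50 bases from it, on the strand of the gene (RefSeq, GRCh38.p14; CYP1A1 chr15:74725479-74725778, minus strand; TIPARP chr3:156674340-156674639, plus strand). Capitals mark GCGTG on either strand, the core that AHR and its partner ARNT bind.
CYP1A1: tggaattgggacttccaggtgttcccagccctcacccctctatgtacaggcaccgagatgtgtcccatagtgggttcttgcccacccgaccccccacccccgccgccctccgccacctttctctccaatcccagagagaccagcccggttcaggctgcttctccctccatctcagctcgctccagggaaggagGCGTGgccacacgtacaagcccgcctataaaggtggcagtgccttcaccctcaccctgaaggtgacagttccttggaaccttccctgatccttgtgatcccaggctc
TIPARP: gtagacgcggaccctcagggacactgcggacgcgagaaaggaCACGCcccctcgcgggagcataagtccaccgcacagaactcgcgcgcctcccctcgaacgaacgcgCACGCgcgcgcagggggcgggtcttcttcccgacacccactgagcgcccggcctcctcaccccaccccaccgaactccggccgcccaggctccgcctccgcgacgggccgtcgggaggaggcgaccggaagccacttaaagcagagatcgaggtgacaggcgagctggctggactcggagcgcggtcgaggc
CYP1A1 holds 1 such core, at position -57 from the start, and TIPARP holds 2, at positions -208 and -142. Of 35116 promoters of this length 36.5% hold at least 1, so a match is common and is no more than a description.

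CYP1A1 stood at 488, 521 and 522 CPM in the 100 µg/mL libraries, against 176, 113 and 108 CPM in the 20 µg/mL libraries. All 3 libraries at 100 lay far above those at 20, of which the first replicate was the highest. The log2 fold change was 1.95 ± 0.086 (edgeR adjusted p = 9.92e-23), and 2.21 without the first replicate at 20 µg/mL. At 500 µg/mL CYP1A1 was at 972, 990 and 1004 CPM and in vehicle at 13, 11 and 13.9 CPM. Its rise of 0.95 ± 0.082 in the upper step was smaller than that in the lower step, by 1.00 ± 0.14 (adjusted p = 7.97e-07).

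The repressor of the pathway, AHRR, followed at a much lower level. It had 2.09, 2.59 and 2.85 CPM at 100 µg/mL and 1.69, 0.961 and 0.534 CPM at 20 µg/mL, with no overlap, and rose by 1.27 ± 0.21 (edgeR adjusted p = 3.1e-05), or by 1.75 without the first library at 20 µg/mL. ALDH3A1, an aldehyde dehydrogenase, rose by 0.96 ± 0.20 (adjusted p = 0.00073). CYP1A2, which lies next to CYP1A1, was near 1 CPM, at 1.04, 1.14 and 0.896 CPM at 100 µg/mL and 0.303, 0.259 and 0.534 CPM at 20 µg/mL. Its rise of 1.46 ± 0.38 (adjusted p = 0.0108) was lost when either of 2 libraries at 20 µg/mL or the second at 100 µg/mL was left out, with adjusted p up to 0.0953. The receptor itself did not pass, with 52.1, 51.9 and 47.6 CPM at 100 µg/mL and 52.3, 48.8 and 47.9 CPM at 20 µg/mL. Its partner ARNT fell by 0.19 (adjusted p = 0.0261), a call lost when any one of 4 libraries was left out. TIPARP, an ADP-ribosyltransferase that restrains AHR, was at 23.8, 24.2 and 20.8 CPM and 23.6, 23.7 and 21.6 CPM at 100 and 20 µg/mL, with the libraries overlapping. In all 5 of 8 tested members of the AHR list rose and 1 fell, beside 3.11% and 2.57% of all genes tested. The median was 0.73 beside 0.0031 over all genes tested. The 5 include NQO1, which is also counted among the NRF2 targets below.

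**Figure D2:**
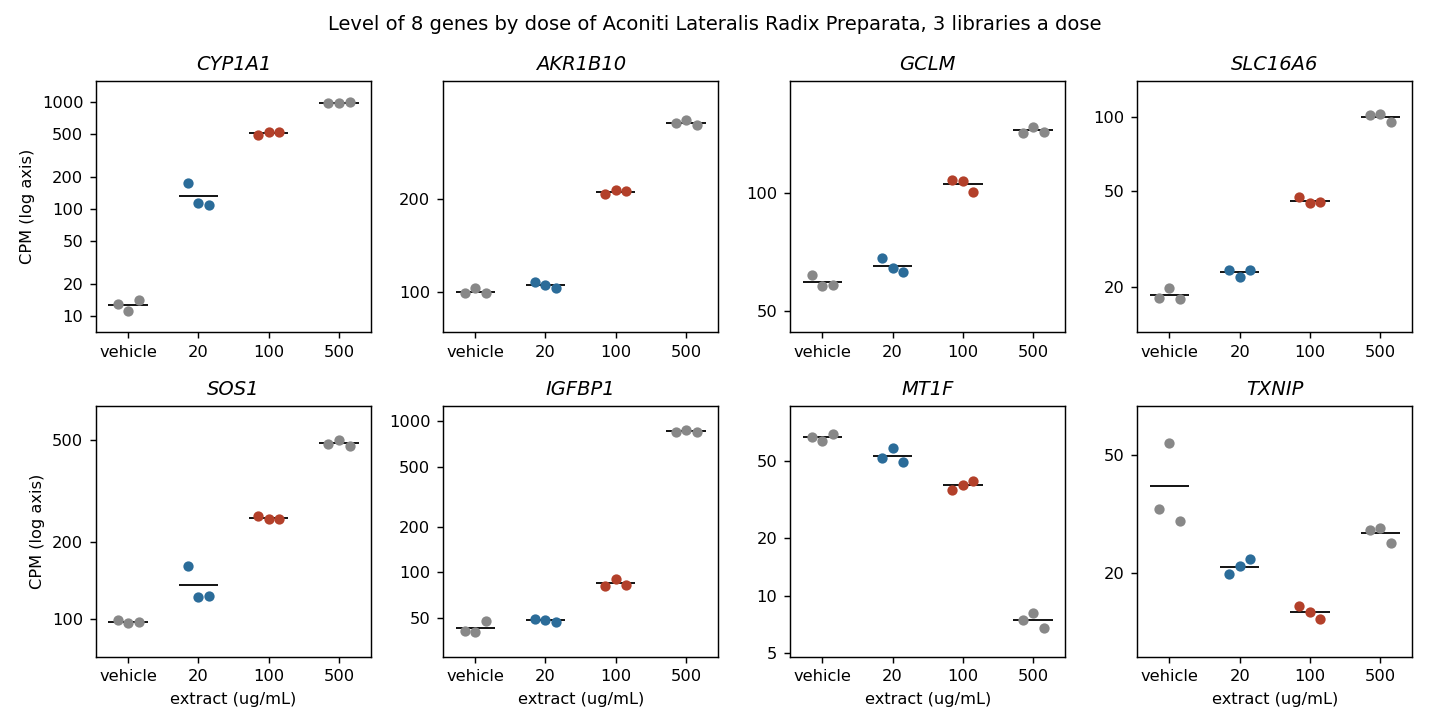
Level (CPM, log axis) of 8 genes in each library by dose of the extract, with vehicle at the left and a line at the mean of 3 libraries. CYP1A1, AKR1B10, GCLM, SLC16A6, SOS1 and IGFBP1 were higher in every 100 µg/mL library than in every 20 µg/mL library, MT1F and TXNIP were lower, and TXNIP was higher again at 500 µg/mL.

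Targets of NRF2 formed the list with the most members called. Of 23 tested, 19 rose and 0 fell by edgeR, beside 3.11% and 2.57% of all genes tested, and the median log2 fold change was 0.41. At an unadjusted p under 0.05, 22 were higher and 0 lower, and DESeq2 called 20 higher and 0 lower. Without the second or the third library at 100 µg/mL 16 rose by edgeR, and HMOX1, FTL and PGD each lost the call in 5 of 17 alternatives. The list was drawn up with earlier results of these data known. Promoters of GCLM and TXNRD1, a glutathione gene and a thioredoxin gene of the list, are shown for the core of the antioxidant response element, TGACNNNGC on either strand, in capitals (chr1:93909381-93909680, minus strand and chr12:104215529-104215828, plus strand, RefSeq, GRCh38.p14, strand of the gene).
GCLM: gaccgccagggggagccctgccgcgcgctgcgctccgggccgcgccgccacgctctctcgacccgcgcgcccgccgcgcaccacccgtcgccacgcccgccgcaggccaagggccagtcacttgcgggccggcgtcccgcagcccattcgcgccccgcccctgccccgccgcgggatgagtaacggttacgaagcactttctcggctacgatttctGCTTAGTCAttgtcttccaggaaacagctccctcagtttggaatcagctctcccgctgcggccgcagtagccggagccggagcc
TXNRD1: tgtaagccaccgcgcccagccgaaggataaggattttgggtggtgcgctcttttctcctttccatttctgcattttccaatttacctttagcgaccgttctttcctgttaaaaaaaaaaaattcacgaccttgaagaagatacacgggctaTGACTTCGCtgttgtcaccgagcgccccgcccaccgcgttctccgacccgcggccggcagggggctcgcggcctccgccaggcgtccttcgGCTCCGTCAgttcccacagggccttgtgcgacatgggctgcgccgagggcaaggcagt
The core stands once in GCLM, at position -34, and in both orientations in TXNRD1, at positions -99 and -8. It is found in 13.3% of all promoters, and 1.13% hold 2 or more. It was searched after the values were seen. No match lay in the same window of NQO1, SRXN1, SQSTM1 or OSGIN1, which says only that these letters are not in that window.

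GCLM, which modifies the ligase that commits cysteine to glutathione, had 108, 108 and 101 CPM at 100 µg/mL, against 68.1, 64.3 and 62.6 CPM at 20 µg/mL. The doses did not overlap, and the rise was 0.70 ± 0.043 (edgeR adjusted p = 1.63e-17). The catalytic subunit GCLC rose by 0.43 ± 0.041. For GCLM the lower step exceeded the upper one by 0.24 ± 0.072 (adjusted p = 0.0192), a difference lost without the first or second library at 100 µg/mL or the third at 20 µg/mL. GCLC went the other way, with the lower step -0.34 ± 0.07 relative to the upper step (adjusted p = 0.000451). The cystine importer SLC7A11 had 94.4, 82.2 and 83.7 CPM at 100 µg/mL and 59.4, 54 and 51.6 CPM at 20 µg/mL. Its rise of 0.66 ± 0.066 was followed by a larger one of 1.49 ± 0.064 at 500 against 100 µg/mL (difference of steps -0.83 ± 0.11, adjusted p = 3.54e-07).

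AKR1B10, a reductase of aldehydes and retinal, stood at 99, 103 and 99.3 CPM in vehicle, 108, 106 and 104 CPM at 20 µg/mL and 208, 213 and 212 CPM at 100 µg/mL. Every 100 µg/mL library lay above all libraries of both lower groups. Its level at 20 µg/mL was thus near that of vehicle (0.074 ± 0.048, adjusted p = 0.249), while the step to 100 µg/mL was 1.00 ± 0.046 (edgeR adjusted p = 5.45e-22). Vehicle is of another set, however, and the other extracts at 20 µg/mL were lower. Bupleuri Radix, of the same set, had 79.7, 85.6 and 84.5 CPM and Cimicifugae Rhizoma 82.1, 81.2 and 85.4 CPM. Whether AKR1B10 had already risen at 20 µg/mL relative to these was not tested. The quinone reductase NQO1 had 1035, 1020 and 990 CPM at 100 µg/mL and 730, 735 and 682 CPM at 20 µg/mL, a rise of 0.50 ± 0.048. Among enzymes of thioredoxin and peroxiredoxin repair, TXNRD1 rose by 0.51 ± 0.034 and SRXN1 by 0.65 ± 0.042. The thioredoxin gene TXN was at 0.28 ± 0.091 (adjusted p = 0.0521), just outside the threshold, and was called in 10 of 17 alternatives, among them DESeq2 and the replicate block that pairs the libraries (adjusted p = 0.029).

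Several targets rose at 100 µg/mL and no further at 500 µg/mL. OSGIN1, an oxidative stress growth inhibitor, was at 84.9, 99.2 and 96.2 CPM at 100 µg/mL and 65.3, 64.8 and 63.3 CPM at 20 µg/mL, a rise of 0.54 ± 0.076, and at 500 against 100 µg/mL it was at 0.041 ± 0.075 (adjusted p = 0.742). The difference of its steps was 0.50 ± 0.13 (adjusted p = 0.00643), lost without the second or the third library at 100 µg/mL. AKR1C2, a steroid reductase, rose by 0.50 ± 0.054 and then stood at -0.04 ± 0.054 (difference 0.54 ± 0.093, adjusted p = 3.61e-05). TKT, of the pentose phosphate pathway, rose by 0.25 ± 0.038 and was then at 0.018 ± 0.038 (difference 0.23 ± 0.066, adjusted p = 0.0122, lost without the same libraries). Over the list 9 members had a lower step above the upper one and 3 had it below, beside 5.99% and 5.97% of all genes tested. AKR1C1, AKR1C2 and AKR1C3 are close copies, as are AKR1B10 and a neighbour, and reads shared between them were divided by estimation. SQSTM1, the autophagy receptor that also frees NRF2, rose by 0.58 ± 0.032 (adjusted p = 6.27e-19). It was the sole called member of 20 autophagy and lysosome genes at this step. That is 5%, near the 5.68% of all genes tested, so nothing is read from that count. At 500 against 100 µg/mL 12 rose and 1 fell, where 15.7% of all genes were called higher and 15% lower.

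Several metallothionein genes fell. Of 11 tested genes of the zinc list 5 fell and 1 rose, with a median of -0.21, where 2.57% of all genes tested fell and 3.11% rose. The promoters of MT1X and MT2A, both in the metallothionein cluster on chromosome 16, of which the first fell and the second did not pass, are shown with the metal response element in capitals, TGCACNC or TGCGCNC on either strand (chr16:56682220-56682519, plus strand and chr16:56608334-56608633, plus strand, RefSeq, GRCh38.p14, strand of the gene).
MT1X: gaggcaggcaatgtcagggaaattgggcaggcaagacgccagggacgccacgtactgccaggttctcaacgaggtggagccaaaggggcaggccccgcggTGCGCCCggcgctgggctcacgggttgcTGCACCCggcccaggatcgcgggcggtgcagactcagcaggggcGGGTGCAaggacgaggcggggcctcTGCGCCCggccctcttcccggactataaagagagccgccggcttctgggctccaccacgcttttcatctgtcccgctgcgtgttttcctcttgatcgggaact
MT2A: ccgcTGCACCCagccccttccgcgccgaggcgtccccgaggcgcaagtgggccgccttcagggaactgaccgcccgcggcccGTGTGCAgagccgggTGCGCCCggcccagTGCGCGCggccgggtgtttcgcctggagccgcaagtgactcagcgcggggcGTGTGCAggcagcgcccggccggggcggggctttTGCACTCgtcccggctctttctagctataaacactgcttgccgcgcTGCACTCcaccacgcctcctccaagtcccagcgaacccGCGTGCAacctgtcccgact
MT1X holds 4 and MT2A holds 8, where 29.6% of all promoters hold at least 1 and 2.3% hold 3 or more. One of the 8 in MT2A, GCGTGCA, also holds the AHR core.

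MT1F was at 35.5, 37.6 and 39.6 CPM at 100 µg/mL, against 51.9, 58.8 and 49.5 CPM at 20 µg/mL. The doses did not overlap, and the change was -0.51 ± 0.088 (edgeR adjusted p = 6.87e-05). At 500 µg/mL it was at 7.5, 8.16 and 6.74 CPM, a further -2.33 ± 0.11, so that the lower step was the smaller fall by 1.82 ± 0.17 (adjusted p = 3.62e-11). MT1X was at 44.3, 46.4 and 45.4 CPM at 100 µg/mL and 56, 61.6 and 61.9 CPM at 20 µg/mL (-0.40 ± 0.10, adjusted p = 0.0101). MT1G (-0.40 ± 0.11), MT1E (-0.36 ± 0.10) and the scarce MT1M (-1.07 ± 0.25) fell as well. MT2A was at 336, 365 and 367 CPM at 100 µg/mL and 392, 454 and 392 CPM at 20 µg/mL, again with no overlap, but with -0.21 ± 0.12 it did not pass (adjusted p = 0.395). It was called in 3 of 17 alternatives, with adjusted p = 0.000982 when only the 6 libraries were fitted with the replicate block. The zinc sensor MTF1 was at 0.037 ± 0.068 (adjusted p = 0.866) and the zinc exporter SLC30A1 at -0.13 ± 0.045 (adjusted p = 0.072). SLC30A1 was called in 5 of 17 alternatives, with adjusted p = 0.0422 with a replicate block in each set, 0.0134 in the blocked fit of the 6 libraries and 0.0498 by DESeq2. SLC39A10, a zinc importer, rose by 0.23 ± 0.071 (adjusted p = 0.0466), a call lost in 9 of 17 alternatives, DESeq2 among them. The count of 5 lower rested on few libraries, since it was 1 without the second library at 20 µg/mL and 3 without the first or the second at 100 µg/mL. MT1F was called in all of the 17 alternatives. These genes are near-identical copies, so the counts of single members are uncertain.

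Transcripts of mitochondrial DNA moved in opposite directions. Both strands of this small circular genome are read as long precursors that are then cut into messenger, ribosomal and transfer RNAs. The ribosomal RNA MT-RNR1 was at 26360, 28190 and 27890 CPM at 100 µg/mL, against 7198, 6925 and 6720 CPM at 20 µg/mL, a rise of 1.98 ± 0.061 (edgeR adjusted p = 2.71e-29). MT-RNR2 rose by 1.34 ± 0.065. Both rose further at 500 against 100 µg/mL, but by less (difference of steps 1.20 ± 0.10 and 0.81 ± 0.11).

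Of 13 mitochondrial messenger RNAs 2 rose and 4 fell, with a median of -0.24, beside 3.11% and 2.57% of all genes tested. MT-ND4, a subunit of respiratory complex I, was at 5867, 6375 and 5424 CPM at 100 µg/mL, against 11830, 10770 and 9984 CPM at 20 µg/mL (-0.88 ± 0.14, edgeR adjusted p = 1.04e-05). MT-ND4L (-0.71 ± 0.094), MT-CO3 (-0.60 ± 0.11) and MT-ND3 (-0.59 ± 0.16) fell too, the last with a call lost when the second or the third library at 100 µg/mL or the second at 20 µg/mL was left out. In the order of the genome the fold changes went from 0.21 for MT-ND1 down to -0.88 for MT-ND4, though those from MT-ND1 to MT-ATP6 were not called. MT-ND3 was the only gene of that run not below the gene before it, and the next gene, MT-ND5, rose.

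MT-ND5 was at 6706, 6754 and 6759 CPM at 100 µg/mL and 3912, 3365 and 3073 CPM at 20 µg/mL, a rise of 0.97 ± 0.10 (edgeR adjusted p = 2.85e-09). MT-ND6, the one protein-coding gene of the opposite strand, rose by 0.93 ± 0.23 (adjusted p = 0.0075), or by 1.21 without the first library at 20 µg/mL, a call lost without the first library at 100 µg/mL (adjusted p = 0.0677) or the second at 20 µg/mL (adjusted p = 0.108). At 500 against 100 µg/mL MT-ND5 fell by 0.40 (adjusted p = 0.00228) and no other of the 13 was called. The difference of steps for MT-ND5 was 1.36 ± 0.17 (adjusted p = 1.18e-07) and for MT-ND4 -0.87 ± 0.24 (adjusted p = 0.0106, lost without the third library at 100 µg/mL). When only the 6 libraries were fitted, 2 rose and 8 fell. Nuclear copies of mitochondrial genes share reads with them, and the setting for strand in the authors' counting is not given in the sources used here. The labels state an RNA integrity number above 7 and a messenger RNA library kit, and 6 tested small structural RNAs had 0 called at this step by edgeR (0 at an unadjusted p under 0.05, 0 by DESeq2), against 4 higher at 500 against 100 µg/mL.

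**Figure D3:**
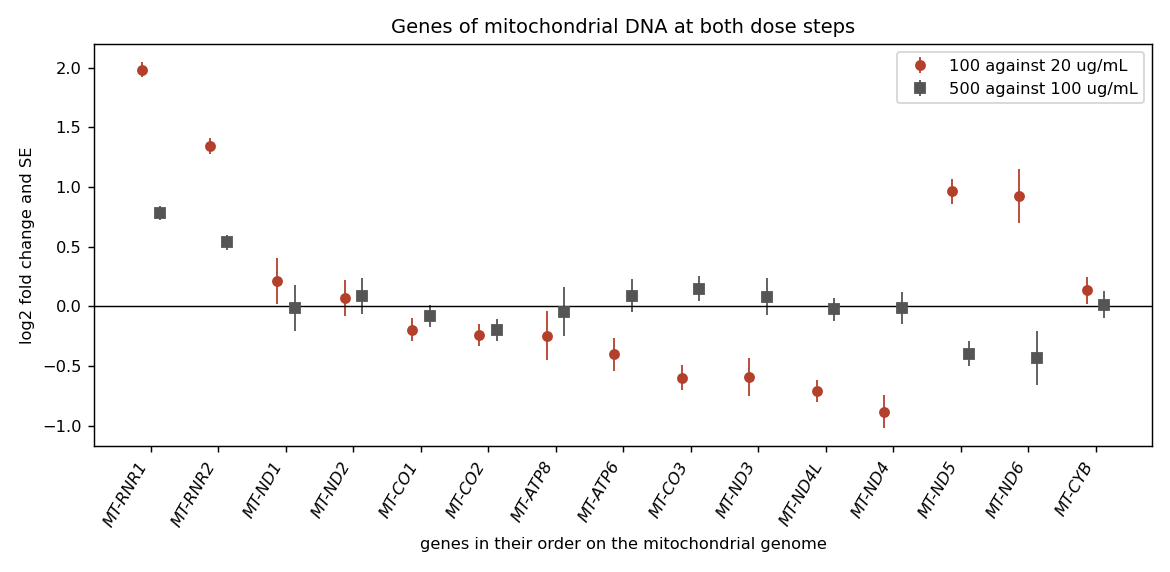
Log2 fold change (point) with its standard error (bar) of the 15 tested genes of mitochondrial DNA, in their order on that genome, at 100 against 20 µg/mL (circles) and at 500 against 100 µg/mL (squares), 3 libraries a dose. At 100 against 20 µg/mL both ribosomal RNAs, MT-ND1, MT-ND2, MT-ND5, MT-ND6 and MT-CYB lay above 0 while MT-CO1 through MT-ND4 lay below it. Of these, MT-ND1 through MT-ATP6 and MT-CYB were not called. At the upper step the messenger RNAs other than MT-ND5 and MT-ND6 lay between -0.20 and 0.15.

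Genes of the amino acid response rose in part. Of 25 tested ATF4 genes 11 rose and 0 fell by edgeR, with a median of 0.16, and at 500 against 100 µg/mL 21 rose. The shares of all genes tested were 3.11% higher and 2.57% lower in the lower step and 15.7% higher in the upper one. The 11 include SLC7A11, which is also counted among the NRF2 targets. At an unadjusted p under 0.05, 15 were higher and 1 lower, and DESeq2 called 10 higher and 0 lower. GDF15, a stress-induced hormone that reduces appetite, was at 337, 368 and 377 CPM at 100 µg/mL, against 204, 206 and 192 CPM at 20 µg/mL. The rise was 0.84 ± 0.059 (edgeR adjusted p = 1.88e-15), and the upper step was the larger (difference -0.57 ± 0.10, adjusted p = 5.28e-05). STC2, a secreted glycoprotein, rose by 0.36 ± 0.046 and the enzyme MTHFD2 of the folate cycle by 0.24 ± 0.05. ASNS, which makes asparagine, rose by 0.23 ± 0.057, a call lost without the second library at 20 µg/mL, and by 1.23 ± 0.055 in the upper step. ATF4 itself rose by 0.16 ± 0.044 (adjusted p = 0.0259), with the call lost when any single library but the first at 100 µg/mL was left out. DDIT3, the proapoptotic factor, was at 0.078 ± 0.098 (adjusted p = 0.78). For 12 members the lower step was below the upper one and for none above it, where 5.97% of all genes tested were below and 5.99% above.

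Immediate early genes, which growth factors and stress switch on within minutes, showed 8 rises and 1 fall among 20, beside 3.11% and 2.57% of all genes tested. IER3 had 98.2, 102 and 97.6 CPM at 100 µg/mL and 74.5, 73.7 and 77.6 CPM at 20 µg/mL, without overlap (0.40 ± 0.058, edgeR adjusted p = 2.97e-06). MAFF, a small partner of NRF2, rose by 0.43 ± 0.077 and JUN by 0.31 ± 0.069. Without the second library at 100 µg/mL 5 rose. Of 12 genes that damp ERK signalling 2 rose, the phosphatase DUSP6 by 0.40 ± 0.044 and SPRY4 by 0.35 ± 0.049, and 8 rose in the upper step. The shares of all genes tested that rose were 3.11% in the lower step and 15.7% in the upper one.

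SOS1 and SLC16A6 were among the highest genes outside these lists or in small ones. SOS1, the exchange factor that loads RAS with GTP, was at 252, 245 and 245 CPM at 100 µg/mL, against 161, 122 and 123 CPM at 20 µg/mL. The first replicate at 20 µg/mL was again the highest of its dose but below every library at 100. The rise was 0.87 ± 0.073 (edgeR adjusted p = 1.07e-12), or 1.02 without that replicate, and the upper step was of like size at 0.97 ± 0.071 (difference -0.091 ± 0.12, adjusted p = 0.738). SOS1-IT1, a transcript within an intron of SOS1 that was picked out after its value was seen, rose by 1.10 ± 0.17 (adjusted p = 7.32e-06), and reads of the 2 may be shared.

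SLC16A6, of the monocarboxylate carrier family, had 18.2, 19.9 and 17.9 CPM in vehicle, 23.5, 22.1 and 23.5 CPM at 20 µg/mL, 47.1, 44.3 and 44.7 CPM at 100 µg/mL and 102, 103 and 96 CPM at 500 µg/mL. No library of a dose overlapped those of the next. Its lower step of 0.98 ± 0.066 (edgeR adjusted p = 5e-16) differed from its upper step by -0.17 ± 0.11 (adjusted p = 0.37). AQP3, a channel for water and glycerol, rose by 0.86 ± 0.073, then by 2.41 ± 0.061. Of 9 genes of glycerol channels and monocarboxylate carriers 3 rose, where 3.11% of all genes tested rose. The third was the lactate exporter SLC16A3 (0.22 ± 0.06), whose call was lost without the first library at 20 µg/mL (adjusted p = 0.178) or the second or the third at 100 µg/mL.

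GPAT3, which adds the first fatty acid in triglyceride synthesis, rose by 0.82 ± 0.075, RGMB, a co-receptor for bone morphogenetic proteins, by 0.72 ± 0.085 and the diacylglycerol kinase DGKG by 0.66 ± 0.089. IGFBP1, a liver hormone-binding protein that insulin represses, had 81.4, 90.6 and 82.8 CPM at 100 µg/mL, against 48.8, 48.5 and 47 CPM at 20 µg/mL, and reached 854, 869 and 846 CPM at 500 µg/mL. Its rise of 0.82 ± 0.097 was the first small part of the change, since the upper step was 3.33 ± 0.096 and the difference of steps, -2.51 ± 0.17 (adjusted p = 8.66e-16), was the lowest of the genes named. Of 11 tested FOXO1 genes IGFBP1 and TRIB1 rose, PCK1 fell and 8 were not called, against 7 higher and 1 lower in the upper step. Of all genes tested 3.11% rose and 2.57% fell in the lower step, and 15.7% rose and 15% fell in the upper one. The fall of PCK1 was lost in 5 of 17 alternatives, with adjusted p up to 0.132. The readthrough transcript MSANTD3-TMEFF1 was also among the 15 highest (0.78 ± 0.22), but it shares exons with its 2 parent genes and lost its call without any one of 3 libraries, so it is uncertain.

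**Figure D4:**
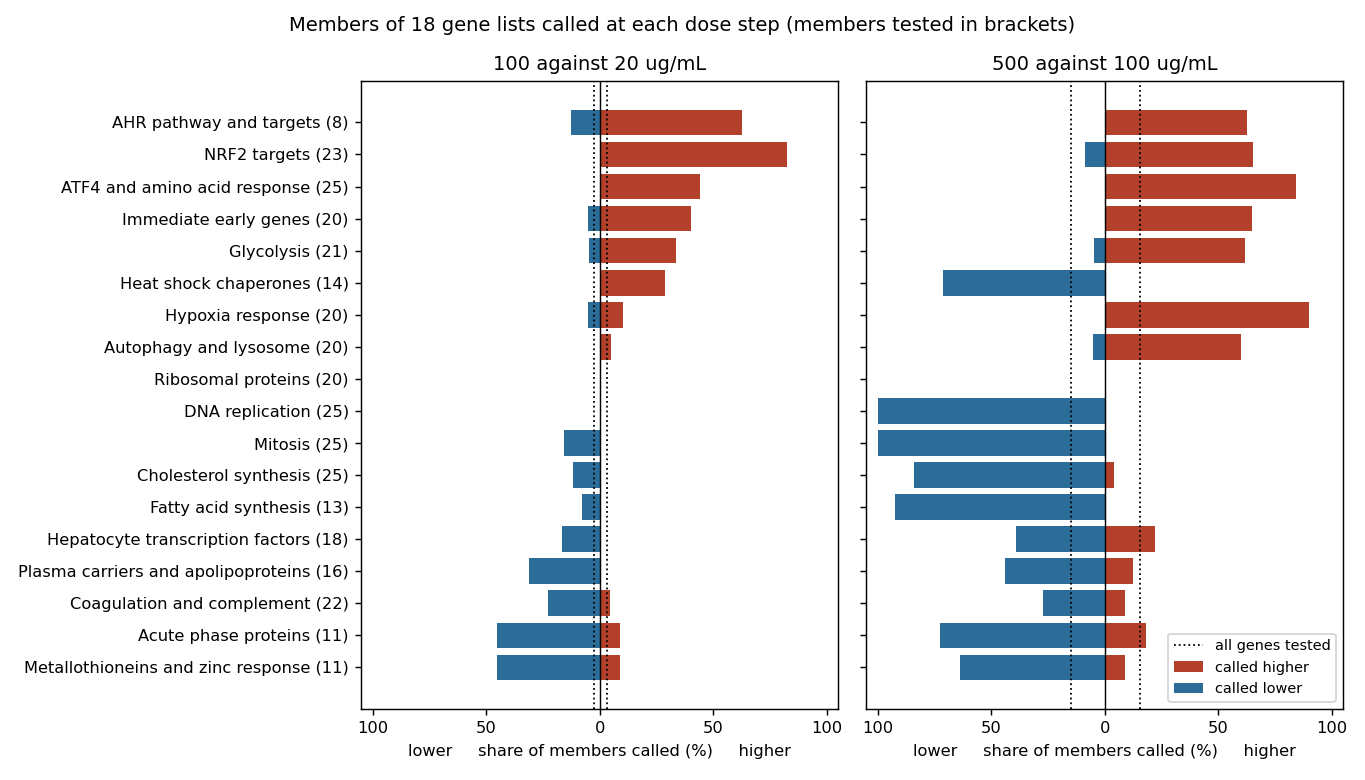
Share of tested members (%) of 18 gene lists that were called higher (right of 0) or lower (left of 0) at 100 against 20 µg/mL (left panel) and 500 against 100 µg/mL (right panel), with dotted lines at the share of all genes tested called in that direction. At 100 µg/mL NRF2 and AHR targets stood out to the right and metallothioneins and acute phase proteins to the left, while mitosis, DNA replication and lipid synthesis were called mainly at 500 µg/mL.

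Some genes of proteins that the liver secretes fell, by small amounts. Of the acute phase list 54.5% was called. Of the coagulation and complement list it was 27.3% and of the plasma carriers 31.2%, beside 5.68% of all genes tested. The 3 chains of fibrinogen, the clotting protein, moved together. FGA was at 634, 642 and 616 CPM at 100 µg/mL and 830, 834 and 797 CPM at 20 µg/mL, without overlap (-0.38 ± 0.033, edgeR adjusted p = 3.23e-12). FGG was at -0.35 ± 0.049 and FGB at -0.30 ± 0.04, and the haemoglobin-binding haptoglobin, HP, at -0.27 ± 0.044. Of 11 acute phase genes 5 fell and 1 rose, of 22 coagulation and complement genes 5 fell and 1 rose, and of 16 plasma carriers 5 fell. SERPINA7, which carries thyroid hormone, was at 138, 142 and 140 CPM in vehicle, 92.9, 98.4 and 100 CPM at 20 µg/mL and 70.5, 69.9 and 66.9 CPM at 100 µg/mL (-0.49 ± 0.052 at 100 against 20 µg/mL, adjusted p = 1.68e-09). KNG1, the precursor of bradykinin, fell by 0.50 and transferrin, TF, by 0.16. The count of plasma carriers was 2 without the second library at 20 µg/mL or the third at 100 µg/mL.

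Among regulators of the hepatocyte programme, the pioneer factor FOXA1 was at 97.8, 99.7 and 98.2 CPM at 100 µg/mL, against 122, 122 and 119 CPM at 20 µg/mL (-0.29 ± 0.038, edgeR adjusted p = 2.57e-07). The bile acid receptor NR1H4 fell by 0.20 here and by 1.56 in the upper step, and FOXA2 by 0.20. NR1H4 and FOXA2 each lost the call when any one of 4 libraries was left out, so that FOXA1 alone of the 3 was called without the second or the third library at 20 µg/mL, and the other 15 of the 18 factors tested were not called. UGT2B4 (-0.67 ± 0.15), UGT2B10 (-0.24 ± 0.047) and UGT2A3 (-0.17 ± 0.048), which conjugate glucuronic acid, were the 3 called of 6 glucuronosyltransferases, where 2.57% of all genes tested fell. The 3 were 1 without the second library at 100 µg/mL, UGT2A3 lost its call in 4 of 17 alternatives, and as close copies they are uncertain. ACSM3 (-0.43 ± 0.043) and ACSM2B (-0.39 ± 0.072), medium-chain acyl-CoA synthetases, fell as well.

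The largest falls outside mitochondrial DNA among genes with a mean of at least 5 CPM were in genes of low level. SLC6A12, a carrier of betaine, had 4.37, 3.88 and 4.09 CPM at 100 µg/mL and 5.93, 6.76 and 7.23 CPM at 20 µg/mL (-0.70 ± 0.11, edgeR adjusted p = 8.6e-06). SCN1A, a sodium channel, had 15.8, 15.8 and 14.3 CPM and 24.8, 22.6 and 23.3 CPM at 100 and 20 µg/mL (-0.62 ± 0.08, adjusted p = 1.65e-07). Both also fell in the upper step, by 0.89 and 0.41. Others were the potassium channel KCNJ10 (-0.54 ± 0.073), the matrix protease MMP11 (-0.58 ± 0.10), the sulfatase ARSI (-0.57 ± 0.076), MAB21L4 (-0.60 ± 0.13), KLHDC7A (-0.56 ± 0.097) and the stem cell factor KITLG (-0.56 ± 0.097). For ARSI and KITLG the upper step was not called, at -0.086 ± 0.083 and -0.14 ± 0.11. For ARSI the difference of steps was -0.48 ± 0.14 (adjusted p = 0.0149, lost without the third library at 100 µg/mL) and for KITLG -0.42 ± 0.18 (adjusted p = 0.126).

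Some genes turned between the steps. TXNIP, an inhibitor of thioredoxin that glucose sensing turns on, was at 32.9, 55.1 and 30 CPM in vehicle, 19.8, 21.1 and 22.2 CPM at 20 µg/mL, 15.5, 14.8 and 13.9 CPM at 100 µg/mL and 28, 28.4 and 25.3 CPM at 500 µg/mL. The 100 µg/mL libraries were the lowest of the 4 groups. TXNIP fell in the lower step (-0.52 ± 0.11, edgeR adjusted p = 0.00145) and rose in the upper one (0.89 ± 0.11), a difference of -1.40 ± 0.19 (adjusted p = 4.29e-07). TNS1, an adaptor at focal adhesions, did the same, with -0.56 ± 0.14 and 0.73 ± 0.14 (difference -1.29 ± 0.24, adjusted p = 0.000116), though its lower step was not called without the third library at 20 µg/mL (adjusted p = 0.0539). PDGFRB, the one detected member of the fibroblast list with more than 1 CPM, had -0.37 ± 0.088 and 0.98 ± 0.085. The glucose carrier SLC2A3 had -0.25 ± 0.047 and 0.37 ± 0.047 (difference -0.62 ± 0.082, adjusted p = 1.93e-07), while 7 of the other 20 glycolysis genes rose at 100 µg/mL. That count of rises was 2 without the first library at 20 µg/mL and 4 without the second or the third at 100 µg/mL. The share of all genes tested that rose was 3.11%.

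A few heat shock chaperones turned the other way. HSPA8, the constitutive HSP70, had 2227, 2210 and 2156 CPM at 100 µg/mL, against 1884, 1824 and 1838 CPM at 20 µg/mL, a rise of 0.25 ± 0.039 (edgeR adjusted p = 9.98e-06) before a fall of 0.29 in the upper step. Of 14 chaperones 4 rose at 100 against 20 µg/mL and 10 fell at 500 against 100 µg/mL, where 3.11% and 15% of all genes tested did so. For 9 the lower step was called above the upper one, beside 5.99% of all genes tested. The 4 were 2 without any one of 3 libraries (the second at 100 µg/mL, the second or the third at 20 µg/mL). HSPA1B (0.24 ± 0.072) is nearly identical to HSPA1A, and its call was lost when any one of 5 libraries was left out.

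Members of programmes that changed widely at 500 µg/mL were mostly not called at 100 µg/mL. Over all genes tested, 3.11% were called higher and 2.57% lower in the lower step. In the upper step these shares were 15.7% and 15%. Of 25 DNA replication genes 0 were called by edgeR at 100 against 20 µg/mL (1 at an unadjusted p under 0.05, 0 by DESeq2), with a median of -0.0074. All 25 fell at 500 against 100 µg/mL, and in 18 the lower step was called above the upper one, beside 5.99% of all genes tested. Of 25 mitosis genes 4 fell (16%, above the share of all genes), led by the spindle protein NUSAP1 (-0.34 ± 0.04) and the kinesin KIF20A (-0.20 ± 0.04). At an unadjusted p under 0.05, 11 were lower and 0 higher in the lower step. All 25 fell in the upper step. Of 25 cholesterol synthesis genes 10 were lower and 0 higher in the lower step at an unadjusted p under 0.05. By the adjusted p 3 fell (12%), among them the sterol reductase TM7SF2 (-0.17 ± 0.045), and 21 fell in the upper step. The 3 were 1 without the first or the third library at 100 µg/mL and 0 without the second library at 20 µg/mL. For fatty acid synthesis the counts were 1 of 13, FADS2, and then 12, and for hypoxia genes 2 higher and 1 lower of 20 and then 18 higher. The genes with the largest positive difference of steps were GSTA2 (-0.01 ± 0.11, then -1.83 ± 0.13), MT1F, MT1G, GSTA1 (0.081 ± 0.063, then -1.61 ± 0.07) and ACSM2A (-0.23 ± 0.11, then -1.85 ± 0.15). The glutathione transferases GSTA1 and GSTA2 were thus not called at 100 µg/mL. Among those at the other end, beside IGFBP1, were CHST15 (-0.17 ± 0.13, then 1.46 ± 0.12), RASD1 (0.25 ± 0.098, then 1.80 ± 0.086) and AQP3.

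Lists with few or no calls at this step were 1 of 18 endoplasmic reticulum chaperones (HSPA5, lost in 8 of 17 alternatives), and by edgeR 0 of 20 ribosomal proteins (1 at an unadjusted p under 0.05, 0 by DESeq2), 0 of 11 urea cycle genes (1 and 0), 0 of 13 MHC class I genes (2 and 0) and 0 of 11 clock genes (6 and 0). These counts are near what the 5.68% of all genes called would give in lists of this size, so nothing is read from them.

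At 20 µg/mL the extract already differed widely from vehicle, with 2711 genes called higher (16.8%) and 2317 lower (14.4%). The titles name batch B for vehicle and extract alike, but the vehicle codes open differently, which is read here as another set. Set and extract thus cannot be told apart here, and with the GC trend removed the total was 2863 in place of 5028. Against that background, CYP1A1 (3.38 ± 0.11) and SOS1 (0.47 ± 0.075) were higher at 20 µg/mL than in vehicle, whereas AKR1B10 (0.074 ± 0.048), SLC7A11 (0.0003 ± 0.069) and IGFBP1 (0.17 ± 0.10) were not called there.

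The same step of 100 against 20 µg/mL was then set beside that of Bupleuri Radix, which shares the set code, and Cimicifugae Rhizoma. Each extract has its own 20 µg/mL libraries. The step of Aconiti Lateralis Radix Preparata was above that of Bupleuri Radix in 134 genes (0.833%) and below it in 145 (0.901%), and the total of 279 was 123 when only the libraries compared were fitted and 437 with a replicate block in each set. Against Cimicifugae Rhizoma it was above in 107 genes (0.665%) and below in 87 (0.541%). With a GC trend removed 296 genes differed from Cimicifugae Rhizoma, 68.2% of them above, against 55.2% of the 194 without that removal, and 99 to 168 differed with 1 library left out.

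CYP1A1 had 488, 521 and 522 CPM at 100 and 176, 113 and 108 CPM at 20 µg/mL of Aconiti Lateralis Radix Preparata, against 16, 13.6 and 13.4 CPM and 12.6, 11.5 and 10.8 CPM at these doses of Bupleuri Radix. The steps differed by 1.66 ± 0.16 (edgeR adjusted p = 1.31e-10). Cimicifugae Rhizoma gave 66.4, 72.1 and 68.5 CPM and 20.2, 17.9 and 21.2 CPM at a lower level throughout, and its step of 1.80 ± 0.10 was not separated from that of Aconiti Lateralis Radix Preparata (difference 0.15 ± 0.14, adjusted p = 0.804).

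SLC16A6 and SOS1 stood above both other extracts. SLC16A6 was at 19.1, 15.6 and 16.3 CPM at 100 and 20.9, 21.1 and 19.1 CPM at 20 µg/mL of Bupleuri Radix, and at 20.1, 18.4 and 18.8 CPM and 20, 18.5 and 20.7 CPM with Cimicifugae Rhizoma. The difference of its step was 1.24 ± 0.099 (edgeR adjusted p = 8.73e-13) and 1.03 ± 0.1 (adjusted p = 7.83e-10). SOS1 was at 100, 82.2 and 95.3 CPM and 104, 98.7 and 89.2 CPM at the 2 doses of Bupleuri Radix, with a difference of 0.94 ± 0.10, and of 0.79 ± 0.10 from Cimicifugae Rhizoma. AKR1B10 rose with Cimicifugae Rhizoma too (0.40 ± 0.048), but less (difference 0.59 ± 0.067, adjusted p = 4.34e-08). Of 23 NRF2 targets 13 were above Bupleuri Radix and 10 above Cimicifugae Rhizoma, beside 0.833% and 0.665% of all genes tested. For GCLM the differences were 0.68 ± 0.062 and 0.47 ± 0.062. Both mitochondrial ribosomal RNAs were above both extracts, MT-RNR1 by 1.75 ± 0.084 and 1.68 ± 0.084.

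MT1E, MT1G, MT1M and MT1X fell with all 3 extracts, though with Aconiti Lateralis Radix Preparata each lost its call without the second library at 20 µg/mL. MT1F was also lower with the other extracts, without overlap of doses. It had 34.2, 34.8 and 33.1 CPM at 100 and 47.8, 62.4 and 52.7 CPM at 20 µg/mL of Bupleuri Radix. With Cimicifugae Rhizoma it had 21.2, 21.3 and 19.5 CPM and 42.2, 44.9 and 42.4 CPM at these doses. MT1G was at -0.40 ± 0.11 with Aconiti Lateralis Radix Preparata, at -0.66 ± 0.12 with Bupleuri Radix (difference 0.26 ± 0.16, edgeR adjusted p = 0.626) and at -1.27 ± 0.12 with Cimicifugae Rhizoma (difference 0.88 ± 0.17, adjusted p = 0.0017). Of the 11 zinc genes 4 were above Cimicifugae Rhizoma by edgeR, beside 0.665% of all genes tested. HAMP, the iron hormone hepcidin, was at -0.12 ± 0.11 with Aconiti Lateralis Radix Preparata and -0.92 ± 0.12 with Cimicifugae Rhizoma (difference 0.80 ± 0.16, adjusted p = 0.00256). Of 11 acute phase genes 5 were below Bupleuri Radix and 3 below Cimicifugae Rhizoma, beside 0.901% and 0.541% of all genes tested.

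**Figure D5:**
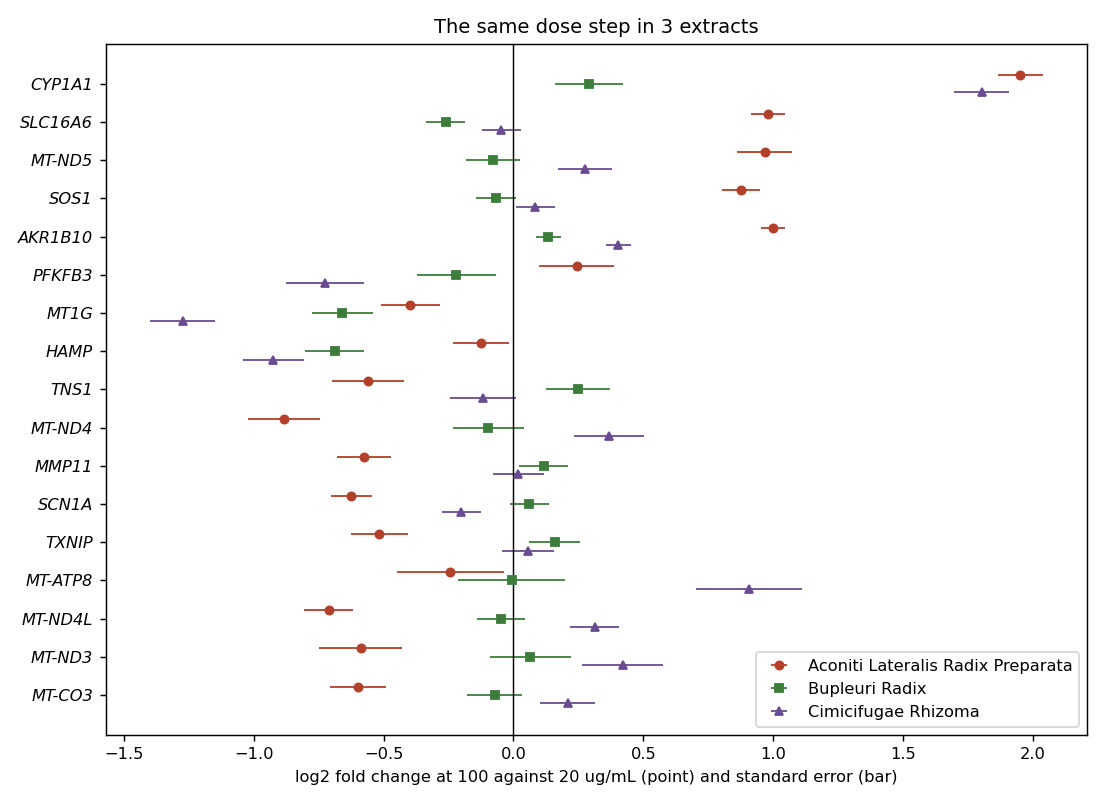
Log2 fold change at 100 against 20 µg/mL (point) with its standard error (bar) in Aconiti Lateralis Radix Preparata (circles), Bupleuri Radix (squares) and Cimicifugae Rhizoma (triangles) for 17 protein-coding genes with a mean of at least 5 CPM, those with the 5 highest and 5 lowest called differences from either other extract, 3 libraries a dose. SLC16A6, SOS1 and MT-ND5 moved to the right in Aconiti Lateralis Radix Preparata, CYP1A1 in it and in Cimicifugae Rhizoma, and TNS1, MMP11, SCN1A and TXNIP to the left.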

How the data were processed

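RNA of HepG2 cells was sequenced as paired 100 bp reads from a directional library kit, per the labels' protocols. FastQC 0.11.9, Trim Galore 0.6.5, STAR 2.7.3a and RSEM 1.3.3 are named with GRCh38 in the submitters' processing notes, and the annotation release is not given in the sources used here. The deposited values are expected counts per gene, estimated by the authors with RSEM. The table has 207 columns of other samples, which were not used, and the wortmannin control was not analysed here. Rows that name no gene held 0.0398% of counts and were left out.

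Expected counts were rounded to whole numbers. One edgeR 4.0.16 quasi-likelihood model (limma 3.58.1, R 4.3.3) was fitted to 57 libraries in 19 groups, with genes filtered by expression (16093 kept), TMM scaling and Benjamini-Hochberg adjustment within each comparison. Calls were made where the adjusted p fell below 0.05, and the SE is the fold change divided by the square root of the F statistic. The 6 libraries compared held 23068632 to 27975477 counts. The code was tested on simulated data. Members and gene lists were chosen with earlier results of these data known, in part by an earlier reading of the same files. Genes named individually were those with the 15 highest and 15 lowest changes among called protein-coding genes with a mean of at least 5 CPM and no overlap of doses, the 5 highest and 5 lowest of the other contrasts, and called or pathway members of the lists.

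The replicate numbers of the labels paired the 100 and 20 µg/mL libraries, with correlations of deviations of 0.408, 0.219 and 0.271 over 9876 genes. They did not pair the 500 and 100 µg/mL libraries in this way, with 0.04, -0.094 and 0.346 at the same number. The second library at 500 and the first at 100 µg/mL had 0.355. The replicate block for the difference of steps includes these libraries. Alternatives were DESeq2 1.42.0, median-ratio size factors, other filters, a replicate block, removal of a GC trend, fitting only the libraries compared, and leaving out each library. Genes of mitochondrial DNA were also left out in one alternative. Fits of only the compared libraries with a replicate block, and of all libraries with a block in each set of the title codes, were added after the data were seen. Results for a few genes are not reported here.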

Additional observations from a re-analysis of the deposited data

Results flagged for a closer look

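Genes are given here because their step of 100 against 20 µg/mL with Aconiti Lateralis Radix Preparata differed from the same step with another extract, by edgeR's test of the difference itself with Benjamini-Hochberg adjustment. They were the 5 highest and the 5 lowest differences called against each extract among protein-coding genes with a mean of at least 5 CPM, which leaves out the mitochondrial ribosomal RNAs.

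Against Bupleuri Radix, which shares the set code, CYP1A1 differed by 1.66 on the log2 scale (adjusted p = 1.31e-10), SLC16A6 by 1.24 (adjusted p = 8.73e-13) and MT-ND5 by 1.04 (adjusted p = 4.57e-06). SOS1 differed by 0.943 (adjusted p = 1.29e-08) and AKR1B10 by 0.864 (adjusted p = 3.17e-13). Below Bupleuri Radix were TNS1 at -0.808 (adjusted p = 0.00851), MT-ND4 at -0.787 (adjusted p = 0.0159) and MMP11 at -0.691 (adjusted p = 0.00221). SCN1A was at -0.685 (adjusted p = 4.82e-05) and TXNIP at -0.674 (adjusted p = 0.00543). The MT-ND4 difference lost its call in 5 of 21 alternatives, among them the fit of only the libraries compared (adjusted p = 0.053) and that without the third library at 100 µg/mL of Bupleuri Radix (-0.555, adjusted p = 0.15).

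Against Cimicifugae Rhizoma, SLC16A6 differed by 1.03 (adjusted p = 7.83e-10) and PFKFB3, the enzyme that makes an activator of glycolysis, by 0.968 (adjusted p = 0.00623). PFKFB3 moved mostly with Cimicifugae Rhizoma, at 3.99, 4.63 and 5.48 CPM at 100 and 5.9, 9.39 and 8.07 CPM at 20 µg/mL. With Aconiti Lateralis Radix Preparata it had 5.91, 6.85 and 6.59 CPM and 5.07, 5.84 and 5.42 CPM. MT1G differed by 0.876 (adjusted p = 0.0017), HAMP by 0.799 (adjusted p = 0.00256) and SOS1 by 0.79 (adjusted p = 1.37e-06). The 5 lowest were all messenger RNAs of mitochondrial DNA. MT-ND4 was at -1.25 (adjusted p = 4.96e-05), MT-ATP8 at -1.15 (adjusted p = 0.0314) and MT-ND4L at -1.02 (adjusted p = 1.09e-06). MT-ND3 was at -1.01 (adjusted p = 0.00845) and MT-CO3 at -0.807 (adjusted p = 0.00101). The MT-ATP8 difference lost its call in 9 of 21 alternatives, each with 1 library left out (adjusted p up to 0.183). MT-ATP8 was at 560.5, 283 and 407.8 CPM at 100 and 244.7, 231.3 and 191.3 CPM at 20 µg/mL of Cimicifugae Rhizoma. With Aconiti Lateralis Radix Preparata it was at 165.2, 180.3 and 151.7 CPM and 207.2, 193.6 and 188.4 CPM.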

How the results depend on the processing

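The 914 genes called at 100 against 20 µg/mL became 1729 when only those libraries were fitted with a replicate block, and 582 to 717 with 1 library left out. With the replicate block in the whole fit there were 982, and no named gene of the text but TXN changed its call. The 1925 genes whose steps differed were 1180 to 1808 with 1 library left out, of which the lowest were 1180 without the second and 1232 without the third library at 100 µg/mL. The 5028 genes called at 20 µg/mL against vehicle were 2863 with the GC trend removed and 3061 with the replicate block as well. The 279 genes that differed from Bupleuri Radix were 437 with the GC trend removed and the replicate block, 437 with a block in each set, and 123 when only the libraries compared were fitted. The 194 that differed from Cimicifugae Rhizoma were 296 with the GC trend removed, 332 with the replicate block as well, and 99 to 168 with 1 library left out. The lowest of these were 99 without the third library at 20 µg/mL of Aconiti Lateralis Radix Preparata, 114 and 121 without its first or its second at 100 µg/mL, and 119, 126 and 128 without the first at 100 µg/mL or the first or the third at 20 µg/mL of Cimicifugae Rhizoma. The cause was not tested. The count at 500 against 100 µg/mL stayed within 1.5-fold in the alternatives run. Of the 15 highest and 15 lowest protein-coding genes with at least 5 CPM and no overlap of doses, 26 were called in each alternative that could be fitted, and MT-ND6, MSANTD3-TMEFF1, MT-ND3 and TNS1 lost the call in at least 1. No called change of a named gene changed direction in the alternatives run, but at 500 against 100 µg/mL the share of higher calls was 51.1% and became 44.6% with the GC trend removed. For the difference of steps that share was 50.1%, against 58% with the GC trend removed and 48.1% without mitochondrial genes. Depth limits genes near 1 CPM, such as CYP1A2, whose values rest on few counts a library.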
